A study of Homo sapiens with 16 samples.

Results

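RNA of Molm14 cells grown with an inhibitor of DOT1L was compared, over all genes, with RNA of the same cells grown with an inhibitor of EZH2, and the genes that the compounds moved in opposite directions were followed in most detail. Molm14 is a human acute myeloid leukaemia line that carries a KMT2A rearrangement. The DOT1L group (iDOT1L) was given 0.16 uM EPZ5676 and the EZH2 group (iEZH2) 0.3 uM GSK126, each for 7 days with medium and compound renewed on day 4. These 8 libraries, 4 per group, were taken out of 16, and the other 8 were DMSO controls (4) and cells given both compounds (Combo, 4). The inhibitors were used at unequal doses and differ in target, so a difference between the groups is one between these treatments at these doses. The table lists 22445 genes, of which 22331 were tested. Levels are normalised counts, differences are on the log2(normalised count + 1) scale as iDOT1L minus iEZH2 unless stated, and a gene was called where the limma p was under 0.05 after Benjamini-Hochberg adjustment over all genes tested. The labels leave unsaid if the 4 libraries of a group came from 4 cultures, so the p-values cover the spread among these libraries, which may be technical.

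DOT1L methylates a lysine in the core of histone H3 over the bodies of transcribed genes, and leukaemias with KMT2A fusions depend on it for their HOXA and MEIS1 programme. EZH2 is the methyltransferase of the Polycomb complex PRC2, which places a repressive methyl mark on a lysine of the H3 tail and keeps developmental regulators and lineage genes off. In myeloid leukaemia cells, loss of the HOXA and MEIS1 programme is known to go with myeloid maturation, and loss of the Polycomb mark with reactivation of silenced loci. The inhibitors block the enzymes and do not remove their mRNAs, so the target transcripts do not test the labels. DOT1L mRNA stood at 5783, 7721, 6461 and 6035 normalised counts in iDOT1L libraries 1 to 4 and at 5928, 6458, 5992 and 6087 with iEZH2, ranges that overlap (log2 difference 0.08, 95% interval -0.17 to 0.32, adjusted p = 0.792). EZH2 mRNA stood at 1340.1, 1987, 1834 and 1839 with iDOT1L and 1842, 2445, 2386 and 2394.5 with iEZH2. It was lower with iDOT1L within each of the 4 replicate numbers, as were 16.7% of all genes tested. EZH2 was not called without the replicate number as a block (log2 difference -0.38, adjusted p = 0.0734). With the block it was called (adjusted p = 5.02e-04), as were 14.3% of all genes tested.

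Estimated read totals of the 8 libraries were 20.96 to 27.2 M. The extraction protocol places the RNA 3 days after a sort, while the treatment lasted 7 days, and the labels do not tie these times together. Among them iEZH2 library 4 stood apart. Over the 1802 genes called without that library, it lay nearer to the iDOT1L mean than each of its 3 fellows in 1259 (69.9%), and its median position was 0.447 on a scale where 0 is the mean of its fellows and 1 the iDOT1L mean. The same figure was -0.102 to 0.204 for 6 of the other libraries and 0.245 for iDOT1L library 2, each measured on the genes called without it. For the named genes that moved most without this library, both values are given.

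The monocyte markers that were called, such as MS4A6A, stood higher with iDOT1L than with iEZH2, and the called genes of the KMT2A-fusion and HOXA programme, such as PBX3, stood lower, with 1 exception. Primary granule genes were called in both directions, MPO being among those higher. Of the genes tested 1550 (6.94%) were called, 866 (3.88%) higher and 684 (3.06%) lower with iDOT1L. In 1361 of the 1550 no library of one group overlapped the other group, as in 2522 (11.3%) of all genes tested, and 251 higher and 170 lower genes differed by at least 2-fold. With the replicate number as a block 3185 genes were called (14.3%), 1641 higher (7.35%) and 1544 lower (6.91%), and each of the 1550 kept its call and its direction. Whether the numbers pair the libraries is not settled by the labels or by the correlations, so values with the block are those of an alternative fit. Without iEZH2 library 3 the count fell to 964, and without iEZH2 library 4 it was 1802. The median difference over all genes tested was 0.002.

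**Figure D1:**
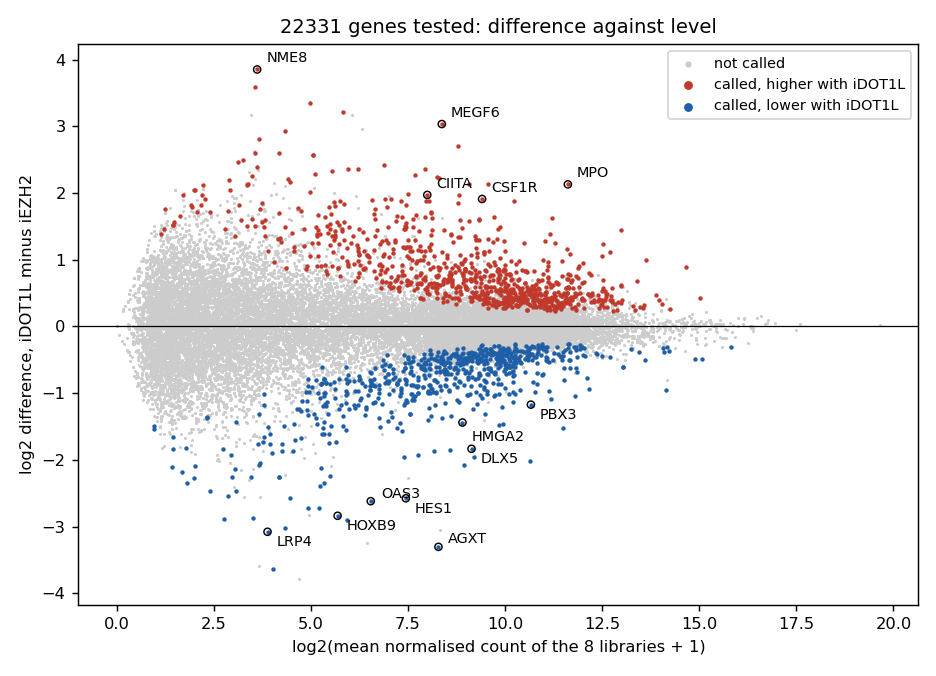
Difference between the treatments (y axis, log2, iDOT1L minus iEZH2) against the level of each gene (x axis, log2 of the mean normalised count of the 8 libraries plus 1) for 22331 genes. Called genes are coloured (866 higher in red, 684 lower in blue) and the circled genes are among those described in the text, from NME8 at 3.85 to AGXT at -3.30.

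The largest called differences were ranked among protein-coding genes whose treatments did not overlap and whose mean was at least 20 normalised counts in the higher group. Several of the 10 largest upward were in genes at low levels with iEZH2. NME8, a thioredoxin-domain protein of cilia, stood at 22.2, 15.1, 25.6 and 24.9 normalised counts with iDOT1L and at 0.689, 0, 0.491 and 1.36 with iEZH2, and it is listed at 0 in each of the 4 DMSO libraries (log2 difference 3.85 ± 0.46 SE, adjusted p = 3.24e-05). GPR141, an orphan G-protein-coupled receptor, lies 14808 bases away from NME8 on chromosome 7 and stood at 58.6, 34.8, 57.6 and 61 against 12.2, 0, 2.12 and 16.3 (log2 difference 3.35, adjusted p = 0.00495). For both genes the lowest iDOT1L library lay above the highest iEZH2 library. PTGER2, a prostaglandin E2 receptor, stood at 28.6, 40.8, 24.5 and 43.1 against 3.56, 3.43, 1.32 and 7.96 (log2 difference 2.92, adjusted p = 0.00104). CLEC12A, an inhibitory lectin receptor of myeloid cells, stood at 98.8, 132, 147 and 106 against 11.5, 19.1, 20.4 and 56.1 (log2 difference 2.36, adjusted p = 0.00179), with the highest of the iEZH2 values in library 4. MEGF6, PKIB, ATP8A2, HAL, MGAM2 and KCNF1 made up the rest of the 10 largest, with log2 differences from 2.36 to 3.03. Without iEZH2 library 4 the difference was 3.94 for GPR141, 3.38 for KCNF1, 3.59 for MEGF6, 3.19 for PKIB, 2.83 for HAL, 3.25 for PTGER2, 2.84 for ATP8A2 and 2.78 for CLEC12A, against 2.81, 2.71 and 2.42 with it for KCNF1, PKIB and ATP8A2. HAL is histidine ammonia-lyase, the first enzyme of histidine breakdown, and PKIB inhibits protein kinase A.

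By the same ranking AGXT, a peroxisomal aminotransferase, had the largest difference downward. It stood at 103, 18.4, 37.1 and 46.2 with iDOT1L and 1204.5, 130.5, 567 and 383 with iEZH2 (log2 difference -3.30, adjusted p = 0.0288). Its groups did not overlap but its libraries were widely spread, and the call was lost without iDOT1L library 2, 3 or 4 and without iEZH2 library 1 or 3 (adjusted p up to 0.0847). ADORA1, an adenosine receptor, fell with iDOT1L, at 1.93, 4.6, 2.58 and 5.03 against 30.6, 28.3, 37 and 42.5, while its DMSO libraries (35, 18.7, 35.6 and 21.1) overlapped the iEZH2 ones (log2 difference -3.02, adjusted p = 1.18e-04). B4GALT6, a galactosyltransferase of glycosphingolipid synthesis, instead rose with iEZH2. It stood at 10.7, 12, 13.3 and 17.5 with iDOT1L, 124, 108, 80.3 and 111 with iEZH2 and 36.1, 30.5, 18.7 and 17.2 with DMSO (log2 difference -2.90, adjusted p = 2.02e-05; iEZH2 minus DMSO 2.05, adjusted p = 0.00128). EPB41L5, a FERM-domain protein of cell polarity, was also called in iEZH2 minus DMSO and not in iDOT1L minus DMSO, with 2.15 (adjusted p = 0.00627) and -0.57 (adjusted p = 0.524). SESTD1 (-2.72), IMPG1 (-2.58), LRP4, HOXB9, OAS3 and HES1 made up the 10, and the last 4 had DMSO between the treatments and are described with the opposite genes.

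Genes of the KMT2A-fusion and HOXA programme stood lower with iDOT1L than with iEZH2. The shares over all genes tested were 3.06% called lower and 3.88% higher, and 6.91% and 7.35% with the block. Of 30 members 13 were called lower and 1 higher (18 and 3 with the block), with a median difference of -0.43 against 0.002 for all genes tested. Without iEZH2 library 3 the lower count was 8, and without iEZH2 library 4 it was 16. PBX3, a homeodomain partner of HOXA9, stood at 1244, 820.4, 867 and 1065 with iDOT1L and 2794.5, 2092.5, 2284.5 and 1823 with iEZH2 (log2 difference -1.17 ± 0.14 SE, adjusted p = 3.86e-05). HMGA2, an architectural chromatin protein of fetal and tumour cells, stood at 289, 239, 264.5 and 218 against 900.4, 592, 830.2 and 492 (log2 difference -1.44, adjusted p = 2.25e-05). DACH1, a transcription factor that KMT2A fusions bind, stood at 1583, 1468, 1326 and 1484 against 5096, 5055, 4410.2 and 2733.5 (log2 difference -1.52, adjusted p = 3.29e-06). In none of these genes did the groups overlap, and in each of them iEZH2 library 4 was the lowest of its group (DACH1 -1.73 without it). MEIS1, the cofactor of HOXA9, differed by -0.75 (adjusted p = 0.00137), HOXA9 itself by -0.38 (adjusted p = 0.0134, not called without iEZH2 library 3) and MEF2C by -0.68 (adjusted p = 0.0216, lost in 6 of 8 fits with a library left out). HOXA10 (-0.35, adjusted p = 0.0571) and the cell cycle kinase CDK6 (-0.49, adjusted p = 0.205) were called only with the block (adjusted p = 0.0114 and 0.00383).

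The programme was not uniform. LMO2, a haematopoietic LIM-domain protein, was its 1 member called higher, at 3027, 2493, 2703 and 2853 with iDOT1L and 2069, 1532, 1803 and 1999 with iEZH2 (log2 difference 0.59, adjusted p = 0.00239), and its DMSO values of 2772, 2417, 2913 and 2933 lay with those of iDOT1L. FLT3, the receptor kinase of this leukaemia type, was lower than DMSO in both groups (-0.61 with iDOT1L, adjusted p = 0.0105, and -0.82 with iEZH2, adjusted p = 0.00232, from fits that share the DMSO libraries). Between the treatments FLT3 differed by 0.21, with a 95% interval of -0.08 to 0.50 (adjusted p = 0.454). MYC (-0.15, interval -0.38 to 0.07) and MYB (0.13, interval -0.05 to 0.31) were not called with or without the block.

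Markers of monocytes and macrophages were higher with iDOT1L. Among all genes tested 3.88% were called higher and 3.06% lower (7.35% and 6.91% with the block), and 50.36% had a positive difference. Of 52 tested members 19 were called higher and 0 lower (24 and 1 with the block), 41 had a positive difference and the median was 0.44. Their summed level was 58657 to 63093 normalised counts in the iDOT1L libraries, 40821 to 48179 with iEZH2 and 48588 to 54512 with DMSO, without overlap between the treatments. In bulk RNA, more cells of a type and more RNA per cell cannot be told apart. MS4A6A, a membrane protein of monocytes, stood at 916.5, 922, 951 and 1088 with iDOT1L and 261, 270.5, 367 and 389 with iEZH2 (log2 difference 1.61 ± 0.13 SE, adjusted p = 1.38e-06). CEBPD, a C/EBP factor of myeloid maturation, stood at 961, 1017, 1076 and 1150.4 against 420.2, 497, 445 and 564 (log2 difference 1.13, adjusted p = 2.21e-06). TLR2, a receptor for bacterial lipoproteins, stood at 1318, 1069.9, 1176 and 1095 against 524.5, 365, 439.5 and 632 (log2 difference 1.27, adjusted p = 1.13e-05). CSF1R, the receptor of macrophage colony-stimulating factor, stood at 1419, 687, 1053 and 1028 against 368, 117, 227 and 535 (log2 difference 1.91, adjusted p = 0.00457, 2.24 without iEZH2 library 4). In each of these the lowest iDOT1L library lay above the highest iEZH2 library. SPI1, which encodes the myeloid factor PU.1, differed by 0.35 (adjusted p = 0.00957), and IRF8, a factor of the monocyte lineage, was called only with the block (0.22, adjusted p = 0.147 without and 0.0239 with it). Not every classical marker was called. CD14, the lipopolysaccharide co-receptor, was low in both groups (3.04 to 6.92 with iDOT1L and 1.24 to 8.9 with iEZH2), and ITGAM, the integrin CD11b, stood at 609, 248, 436 and 369 against 835, 229.9, 454 and 407 (log2 difference -0.14, interval -0.85 to 0.58).

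**Figure D2:**
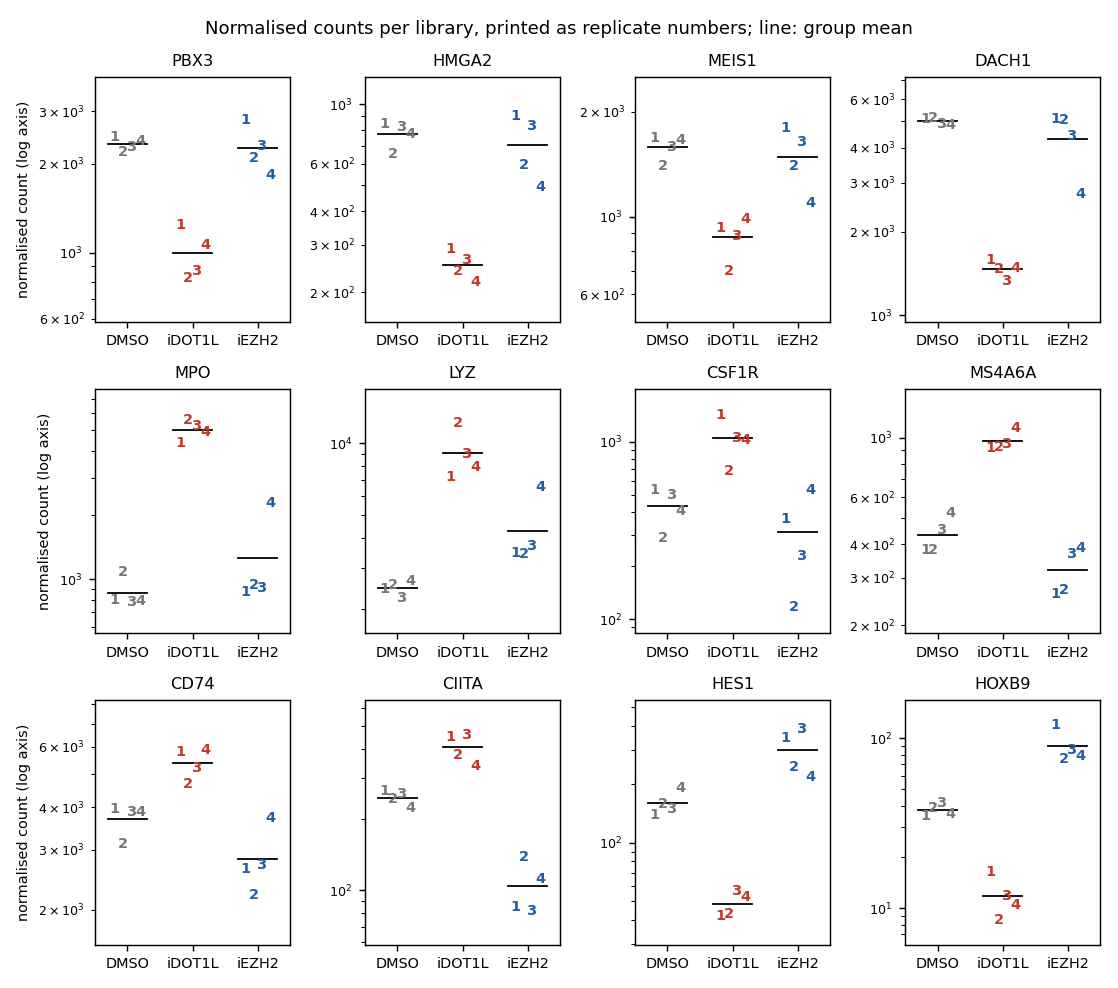
Normalised counts (log axis) of 12 genes in the DMSO, iDOT1L and iEZH2 libraries, each printed as its replicate number, with the group mean as a line. PBX3, HMGA2, MEIS1 and DACH1 are low with iDOT1L, MPO to CD74 are high with iDOT1L, and CIITA, HES1 and HOXB9 have DMSO between the treatments, while iEZH2 library 4 lies on the iDOT1L side of its group for MPO (2288) and DACH1 (2733.5).

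Primary granule genes were divided. Of 15 tested members 6 were called higher and 3 lower with iDOT1L (7 and 4 with the block), and the median difference was 0.10. The shares over all genes tested were 3.88% higher and 3.06% lower, and 7.35% and 6.91% with the block. MPO, the myeloperoxidase of the primary granule, stood at 4374, 5597, 5237 and 4914 with iDOT1L and 872, 941, 913 and 2288 with iEZH2 (log2 difference 2.13 ± 0.23 SE, adjusted p = 3.21e-05), and without iEZH2 library 4 the difference was 2.46. LYZ, lysozyme, stood at 7212, 12082, 8975 and 7933 against 3438, 3418, 3698 and 6541 (log2 difference 1.11, adjusted p = 0.00445), and 1.34 without iEZH2 library 4. It was not called when the 8 libraries were fitted alone with the block (adjusted p = 0.0923). MS4A3, a membrane protein of granulocyte and monocyte precursors, stood at 181, 299, 305.5 and 220.2 against 74.7, 53.9, 48 and 97.2 (log2 difference 1.88, adjusted p = 9.99e-05). BPI, which binds bacterial endotoxin, and PRSS57, a granule serine protease, differed by 1.45 and 0.40 (adjusted p = 1.60e-04 and 0.00111). The members called lower, named after their values were seen, were ELANE, neutrophil elastase (-0.60, adjusted p = 0.00957), CTSG, cathepsin G (-0.50, adjusted p = 0.00484), and the granule proteoglycan SRGN (-0.33, adjusted p = 0.0495). The call of SRGN was lost in 11 of 19 alternatives, among them 6 of 8 fits with a library left out (adjusted p up to 0.181). CEBPA, the factor that drives granulocyte genes, differed by -0.03 (interval -0.18 to 0.12).

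Genes of antigen presentation by MHC class II were higher with iDOT1L where they were called. Among all genes tested 3.88% were called higher and 3.06% lower, and 7.35% and 6.91% with the block. Of 10 tested members 3 were called higher and 0 lower (4 and 0 with the block), with a median of 0.53. Their differences were not all upward: 6 of 10 were positive, and 5 members were higher and 3 lower with iDOT1L in each of the 4 replicate numbers. The shares over all genes tested were 50.36% positive, and 17.2% higher and 16.7% lower in each of the 4 numbers. CIITA, the master regulator of the class II genes, stood at 447, 376.5, 460.1 and 338 with iDOT1L, 84.8, 138, 81.9 and 112 with iEZH2 and 265, 244.5, 258 and 223 with DMSO (log2 difference 1.97 ± 0.17 SE, adjusted p = 2.21e-06). CD74, the invariant chain, stood at 5778, 4668, 5219 and 5866.5 against 2634, 2213, 2699 and 3707 (log2 difference 0.96, adjusted p = 1.12e-04). HLA-DQB1, a class II beta chain, stood at 74.8, 62.1, 77 and 58.7 against 17.6, 20.9, 27.4 and 46.3 (log2 difference 1.34, adjusted p = 0.00646). In these 3 genes the treatments did not overlap.

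Genes moved in opposite directions were defined in 2 ways. By the strict definition a gene had to be called against DMSO in both groups with opposite signs. These comparisons share the DMSO libraries, so each comparison's own values are given side by side. Of the genes tested 1396 (6.25%) were called in iDOT1L minus DMSO and 748 (3.35%) in iEZH2 minus DMSO, and 23 met the strict definition, 13 higher with iDOT1L and lower with iEZH2, and 10 the reverse. All 23 were protein-coding, were called in the direct comparison, differed in the same direction within each of the 4 replicate numbers and showed no overlap between the treatments. Of all genes tested 33.9% differed in 1 direction within each of the 4 numbers and 11.3% showed no overlap. These traits follow largely from the definition, which asks for opposite changes, so they are not separate support for it. Among the 1550 genes called in the direct comparison 1361 showed no overlap. With the block 99 genes met the definition (69 and 30), the 23 among them. The count moved with single libraries. It was 5 without DMSO library 4, 6 without DMSO library 3, 8 without DMSO library 1 and 15 without DMSO library 2. It was 12 without iEZH2 library 3, 13 without iDOT1L library 3, 14 without iDOT1L library 1, 15 without iEZH2 library 2 and 38 without iEZH2 library 4. NCKAP1 and PPIC met it in each of 12 such fits, HOXB9 and IL17RA in 10, CIITA in 9 and HES1 in 8, and HOXA7, KIAA1549 and CITED2 in 2.

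The 13 genes higher with iDOT1L and lower with iEZH2 included receptors of myeloid cells, a class whose share over all genes tested was not counted. CIITA was 0.70 with iDOT1L (adjusted p = 0.0178) and -1.27 with iEZH2 (adjusted p = 4.92e-04). CX3CR1, the fractalkine receptor of monocytes, stood at 1596, 1187, 1399.7 and 1335 with iDOT1L, 535, 345, 438 and 706 with iEZH2 and 862, 677, 833 and 859.9 with DMSO (0.77 and -0.72 against DMSO, adjusted p = 0.00923 and 0.0246). Its iEZH2 library 4 lay within the DMSO range, and CX3CR1 was 1 of 5 strict genes in which DMSO overlapped a treatment, with HSH2D, CACNB4, TMEM121B and ZIC5. IL17RA, a cytokine receptor chain, stood at 9149, 8091.5, 8251 and 7683 with iDOT1L, 3603, 3213, 2955 and 4513 with iEZH2 and 5543, 4992, 4988 and 4883 with DMSO (0.70 and -0.53, adjusted p = 6.96e-04 and 0.0126). CD244, a signalling receptor of natural killer and myeloid cells, was 0.78 and -0.66, and SEMA4A, a semaphorin of immune cells, 0.74 and -0.90. The adaptor HSH2D (0.72 and -0.92), the calcium channel subunit CACNB4 (0.65 and -0.66), TMEM121B (0.56 and -0.54) and the unconventional myosin MYO18A (0.40 and -0.58) had changes of like size on both sides. The smallest were those of PXK (0.44 and -0.33), DENND10 (0.34 and -0.49) and CITED2, a CBP/p300 interactor (0.31 and -0.31). CX3CR1 is a member of the monocyte list above and CIITA of the class II list.

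The 10 genes lower with iDOT1L and higher with iEZH2 included the transcription factors HES1, HOXB9, HOXA7 and ZIC5. The share of transcription factors over all genes tested was not counted. HES1, a repressor and the classical target of Notch signalling, stood at 41.6, 42.8, 56.2 and 52.7 normalised counts with iDOT1L, 345, 245, 387 and 219 with iEZH2 and 139.5, 158, 149 and 192 with DMSO. It was -1.70 against DMSO with iDOT1L (adjusted p = 5.52e-05) and 0.87 with iEZH2 (adjusted p = 0.0284), and the treatments differed 5.96-fold (log2 -2.58 ± 0.22 SE, adjusted p = 1.38e-06). HOXB9, a homeobox factor of the HOXB cluster, stood at 16.3, 8.52, 11.8 and 10.4, 119, 75.7, 85.4 and 77.9 and 34.7, 38.5, 41.3 and 36 (-1.63 and 1.21, adjusted p = 9.24e-04 and 0.018). It was the only one of 9 HOXB genes tested that was called between the treatments (log2 difference -2.84, adjusted p = 6.24e-06). HOXA7 was the 1 strict gene of the KMT2A-fusion and HOXA list, at 217, 231.5, 229 and 197, 359.7, 374, 421 and 408 and 294, 321, 280.3 and 248 (-0.38 and 0.45). ZIC5, a zinc-finger factor of neural development, stood at 63.3, 85.1, 69.8 and 92.7, 216.5, 191.5, 176 and 171 and 117, 134, 88.2 and 122 (-0.56 and 0.72). PPIC, a cyclophilin, stood at 13.4, 23.6, 12.7 and 11.4, 66.5, 71, 72 and 82.9 and 34, 27.5, 28 and 27.9 (-0.95 and 1.29, adjusted p = 0.0105 and 0.00215). NCKAP1, a subunit of the WAVE complex that regulates actin, stood at 122, 168, 119 and 89.8, 464, 532.5, 415 and 393 and 252, 253.5, 212 and 215 (-0.93 and 0.94, adjusted p = 0.00429 and 0.00713). C1orf198 (-0.60 and 0.97), KIAA1549 (-0.74 and 0.76), POPDC3 (-0.79 and 0.61) and the acyl-CoA synthetase SLC27A2 (-0.27 and 0.39) completed the group. Levels were lower here than in the other direction, with a median DMSO mean of 141.6 against 768.7 normalised counts.

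**Figure D3:**
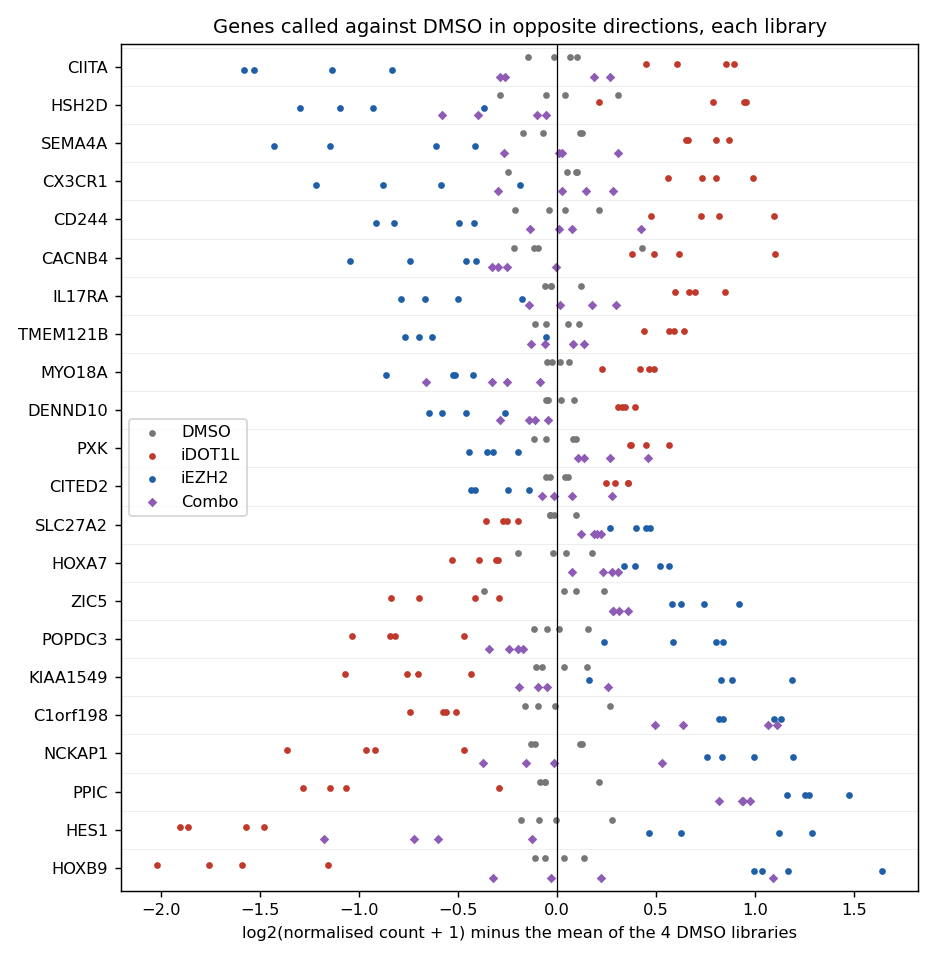
Values of 22 of the 23 genes that met the strict definition in each of the 16 libraries, as log2(normalised count + 1) minus the DMSO mean (x axis), 1 gene per row. The iDOT1L (red) and iEZH2 (blue) points do not overlap in any of the 22 genes, DMSO (grey) overlaps one of them in 5, and the Combo mean (libraries in purple) lies between the treatment means in each, as in CIITA at 247 ± 49.7 (SD, n = 4).

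In cells given both compounds the mean lay between the means of the single treatments for each of the 23 genes, as it did for 1209 (78%) of the 1550 called genes. For 10 of the 23 the Combo mean fell within the range of the 4 DMSO libraries, 8 of the 13 and 2 of the 10. CIITA stood at 206, 281, 297 and 202 in Combo libraries 1 to 4, on both sides of the DMSO range of 223 to 265. HOXB9 stood at 81.1, 29.8, 36.8 and 44, with libraries 1 and 4 above the DMSO range and library 2 below it. C1orf198 kept to the iEZH2 side, at 191, 266, 258 and 174 in Combo against 109.8 to 148 with DMSO.

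By the second definition a gene had to be called between the treatments with every DMSO library lying between the 2 groups. It was met by 68 genes, 43 with iDOT1L on top and 25 with iEZH2 on top, and 18 of the 23 strict genes were among them. With the block the count was 69. Leaving out 1 library leaves fewer values to be apart, and gave 122 without DMSO library 2 and 168 without iEZH2 library 4. Among genes that met only this definition, LRP4 and OAS3 had the largest differences downward and CUX2 the largest upward. In each, 1 of the comparisons with DMSO was not called. These were iEZH2 minus DMSO for LRP4 (1.02, adjusted p = 0.29) and OAS3 (0.97, adjusted p = 0.0907), and iDOT1L minus DMSO for CUX2 (0.52, adjusted p = 0.265). LRP4, an agrin and Wnt co-receptor, stood at 4.2, 0.452, 3.03 and 1.99 with iDOT1L, 28.7, 24.1, 24.6 and 23.3 with iEZH2 and 13.4, 4.82, 15.5 and 18.7 with DMSO (log2 difference -3.08 ± 0.47 SE, adjusted p = 3.35e-04). OAS3, an interferon-induced sensor of double-stranded RNA, stood at 29.3, 45.2, 12.9 and 21, 190.2, 134, 159.9 and 146 and 95.6, 117, 50.8 and 69.7 (log2 difference -2.62, adjusted p = 2.58e-05). CUX2, a homeobox factor, stood at 66, 69.8, 71.4 and 91.3, 19.7, 18.6, 27.8 and 34.2 and 47.9, 49.9, 53.8 and 54.1 (log2 difference 1.57, adjusted p = 3.89e-04).

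Upstream sequences are shown for the opposite genes with the largest differences in each direction that RefSeq's promoter table holds, OAS3 and HES1 (lower with iDOT1L) and SEMA4A and CUX2 (higher), as the 250 bases before the listed start on the plus strand of GRCh38.p14. LRP4, HOXB9, CIITA and HSH2D have no entry there. Capitals mark matches, on either strand, to TGGGAA (the core bound by RBPJ, the DNA-binding factor of Notch signalling), the core of the interferon-stimulated response element and GAGGAA (the core bound by PU.1), the first and second chosen after the sequences were seen. The matches printed do not overlap each other.
HES1, chr3:194135898-194136147: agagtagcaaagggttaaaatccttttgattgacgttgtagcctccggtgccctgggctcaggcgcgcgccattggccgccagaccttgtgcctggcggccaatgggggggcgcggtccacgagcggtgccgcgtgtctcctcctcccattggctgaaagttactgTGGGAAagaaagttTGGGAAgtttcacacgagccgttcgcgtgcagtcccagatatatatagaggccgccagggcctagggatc
OAS3, chr12:112938224-112938473: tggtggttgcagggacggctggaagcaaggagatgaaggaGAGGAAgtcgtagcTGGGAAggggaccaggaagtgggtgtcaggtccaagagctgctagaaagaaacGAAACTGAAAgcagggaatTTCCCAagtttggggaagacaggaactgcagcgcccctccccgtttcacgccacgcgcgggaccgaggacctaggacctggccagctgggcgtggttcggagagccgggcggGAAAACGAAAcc
SEMA4A, 1 of 4 listed starts, chr1:156149694-156149943: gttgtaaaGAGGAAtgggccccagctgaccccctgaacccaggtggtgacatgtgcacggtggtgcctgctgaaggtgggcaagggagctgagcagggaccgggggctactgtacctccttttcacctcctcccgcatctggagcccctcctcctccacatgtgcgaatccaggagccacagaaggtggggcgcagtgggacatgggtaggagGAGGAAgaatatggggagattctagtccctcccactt
CUX2, 1 of 2 listed starts, chr12:111033915-111034164: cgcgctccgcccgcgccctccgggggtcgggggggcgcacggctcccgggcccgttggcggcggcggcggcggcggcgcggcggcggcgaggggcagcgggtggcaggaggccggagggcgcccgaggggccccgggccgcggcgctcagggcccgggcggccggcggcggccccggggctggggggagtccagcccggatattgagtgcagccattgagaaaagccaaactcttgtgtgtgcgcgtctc
HES1 holds 2 copies of TGGGAA, beginning 84 and 70 bases before the start, and 20.8% of 35114 promoters hold at least 1. OAS3 holds 2 copies of the interferon element core, at 143 and 12 bases, where 3.02% of promoters hold one, and also 2 of TGGGAA and 1 of GAGGAA. SEMA4A holds 2 copies of GAGGAA, at 242 and 37 bases, found in 23.6% of promoters. None of these letters occurs in the CUX2 window. The shares are of promoters with at least 1 match, and the share with 2 copies was not counted. The matches describe the letters only, and binding was not measured.

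Developmental regulators that were called stood mostly lower with iDOT1L than with iEZH2. Among all genes tested 3.06% were called lower and 3.88% higher, and 6.91% and 7.35% with the block. Of 37 tested developmental regulators that PRC2 often marks, 8 were called lower and 1 higher with iDOT1L (11 and 2 with the block), with a median of -0.22. DLX5, a distal-less homeobox factor, stood at 232, 236, 219 and 282 with iDOT1L, 1029, 847, 1046 and 608 with iEZH2 and 1106, 921, 1176 and 1159 with DMSO (log2 difference -1.83 ± 0.15 SE, adjusted p = 1.38e-06). Its difference lay on the iDOT1L side (-2.17 against DMSO, adjusted p = 1.99e-07), and that of iEZH2 was -0.33 (adjusted p = 0.291). PAX6, a paired-box factor of eye and brain, stood at 125, 134, 132 and 103, 206, 226.5, 229 and 239 and 72.3, 130.5, 95.3 and 88.8, and its difference (-0.87, adjusted p = 0.00239) lay on the iEZH2 side (1.24 against DMSO, adjusted p = 3.80e-04). The neural factor POU3F2 (-1.10, adjusted p = 6.93e-05) was also higher than DMSO with iEZH2 (0.78, adjusted p = 0.0039), and SIX2 (-0.99, adjusted p = 4.81e-04) was called against DMSO in neither group. The member called higher, named after its value was seen, was OLIG2, a neural basic helix-loop-helix factor (1.36, adjusted p = 0.0238). It was lost from the calls without iDOT1L library 1 or 3 or iEZH2 library 1, 2 or 3.

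Of 19 subunits of the other Polycomb complex, PRC1, 4 were called lower and 1 higher with iDOT1L (5 and 2 with the block). CBX2, a reader of the PRC2 mark, stood at 505, 571, 507 and 483 with iDOT1L, 654, 701, 593 and 773 with iEZH2 and 419, 423.5, 410.2 and 417 with DMSO (log2 difference -0.39, adjusted p = 0.0235). PCGF5, a variant PRC1 subunit, stood at 341, 556, 407 and 384, 744, 813, 713.5 and 571 and 416, 501, 404 and 445.5 (log2 difference -0.76, adjusted p = 0.00128), and PHC1, a Polyhomeotic subunit, differed by -0.90 (adjusted p = 0.00957). All 3 were higher than DMSO with iEZH2 (0.70, 0.68 and 1.12, adjusted p = 8.00e-04, 0.00713 and 0.00436). For CBX2 each iDOT1L library also lay above each DMSO library. CBX6, another reader, was instead higher with iDOT1L than with iEZH2, at 3085, 3091, 2748 and 2679 against 1789, 2030.5, 1750.3 and 1984 (log2 difference 0.62, adjusted p = 3.13e-04). The other member called lower, named after its value was seen, was BMI1 (-0.34, adjusted p = 0.0326). The lower count was 2 without iDOT1L library 3 or 4 or iEZH2 library 2. Of 12 PRC2 subunits 1 was called, EED, which binds the PRC2 mark (-0.42, adjusted p = 0.041, named after its value was seen), and 3 with the block, EZH2 and EPOP (-0.36, adjusted p = 0.00722 with the block) being the others. With a library left out the PRC2 count was 0 to 3 and differed from 1 for each library except iDOT1L library 4. The 1 PRC2 call made up 8.33% of that list, beside 6.94% called over all genes tested. With the block 14.3% of all genes tested were called. In the fit of 16 libraries none of 12 genes of the DOT1L and elongation complexes was called with or without the block. Of 10 genes of the KMT2A and menin complex 0 were called without it and 1 with it (KMT2C, 0.33, adjusted p = 0.00852). With the 8 libraries alone and the block 1 of the 12 was called higher and 1 lower, and 2 of the 10 higher.

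For several metabolic and growth lists, the count of calls depended on whether the replicate number was a block in the fit. Of 24 genes of cholesterol synthesis and SREBP2 targets, 3 were called higher with iDOT1L and 0 lower without the block, and 15 and 0 with it. The median difference was 0.32, 22 of 24 differences were positive, and 19 members were higher and 1 lower with iDOT1L in each of the 4 replicate numbers. Of all genes tested 50.36% had a positive difference, 17.2% were higher in each of the 4 numbers and 16.7% lower. Genes called higher made up 3.88% of all genes tested, or 7.35% with the block. INSIG1, which restrains the sterol sensor SCAP, stood at 5903, 3285, 4543 and 4491.5 with iDOT1L and 4468, 2214, 3036.5 and 2937 with iEZH2. The groups overlap, while within replicate numbers 1 to 4 the log2 differences were 0.40, 0.57, 0.58 and 0.61 (adjusted p = 0.164 without and 1.46e-04 with the block). DHCR7, which makes cholesterol in the last step, differed by 0.16 (adjusted p = 0.46 and 0.196, not called). EBP and ACAT2, a sterol isomerase and a thiolase, were among those called without the block (0.50 and 0.41, adjusted p = 0.0237 and 0.0426). Against the shared DMSO libraries 4 members were called lower with iDOT1L and 20 with iEZH2, and 0 higher with either. With 1 library of a treatment left out the count without the block was 0 to 9, and it moved by over 1.5 times for each library except iEZH2 library 4.

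Most differences of replication and growth genes were downward, and few were called without the block. Over all genes tested 3.06% were called lower without the block and 6.91% with it. Of 36 genes of DNA replication and S phase 3 were called lower with iDOT1L and 0 higher (18 and 0 with the block), 1 of 36 differences was positive and the median was -0.26. RFC3 and RFC5, subunits of the clamp loader, differed by -0.41 and -0.32 (adjusted p = 0.0154 and 0.0442), and thymidine kinase TK1 by -0.32 (adjusted p = 0.0459). Of 32 genes of mitosis and G2 phase 3 were called lower (9 with the block) and no difference was positive, with a median of -0.17. CCNB1, the mitotic cyclin B1, stood at 2002, 2448, 2414 and 2488 with iDOT1L and 2962, 3339, 3168 and 3159 with iEZH2 (log2 difference -0.44, adjusted p = 0.00642), and its kinase CDK1 differed by -0.43 (adjusted p = 0.00867). BIRC5, survivin, differed by -0.30 (adjusted p = 0.0369). Of 30 genes of ribosome biogenesis and MYC targets 3 were called lower (16 with the block), again with no positive difference and a median of -0.22. Among them ODC1, the first enzyme of polyamine synthesis, stood at 2271.5, 3208, 2849 and 3122 against 3540.2, 5964.5, 4834.5 and 3521 (log2 difference -0.62, adjusted p = 0.0153), and the others were NME1 (-0.45) and PES1 (-0.33). With a library left out the count without the block was 0 to 8 for replication, 2 to 4 for mitosis and 0 to 7 for ribosome biogenesis. It moved by over 1.5 times for replication without any iDOT1L library or iEZH2 library 2 or 3, and for ribosome biogenesis without iDOT1L library 1, 3 or 4 or iEZH2 library 1, 2 or 3.

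**Figure D4:**
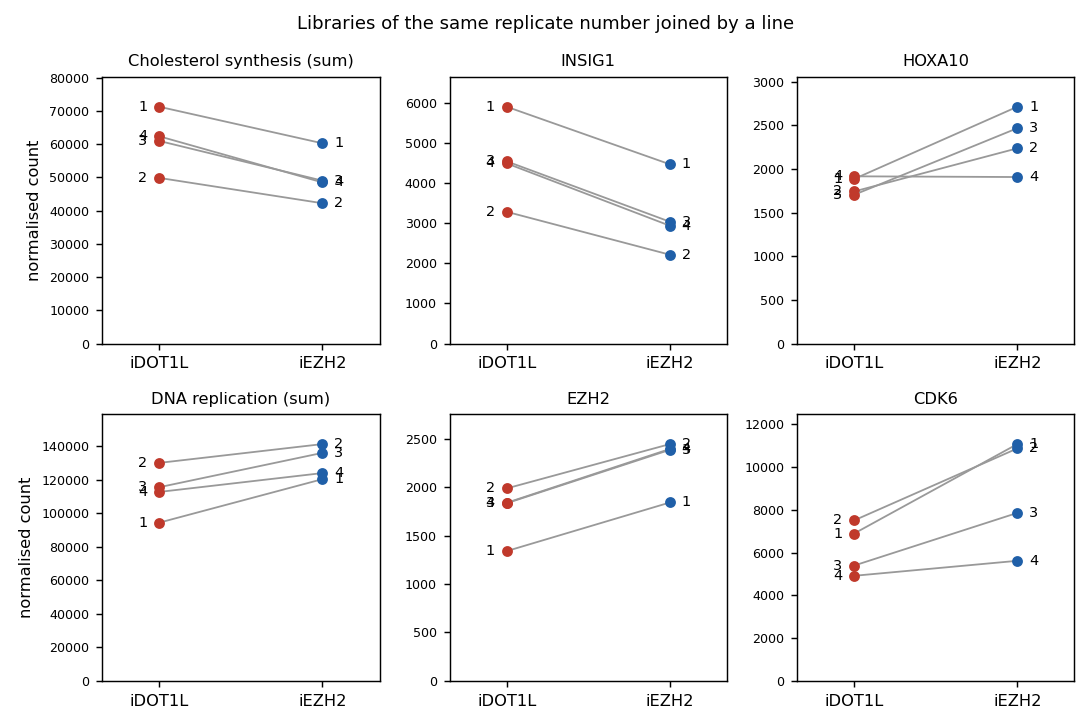
Normalised counts with iDOT1L and iEZH2, with libraries of the same replicate number joined by a line, for 2 summed lists and 4 genes. For INSIG1 and EZH2 the 4 lines slope the same way although the groups overlap, and EZH2 library 1 is the lowest of both groups (1340.1 and 1842).

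The CDK inhibitors, D-type cyclins and p53 targets that were called without the block stood lower with iDOT1L. Shares over all genes tested were 3.06% lower and 3.88% higher, and 6.91% and 7.35% with the block. Of 14 CDK inhibitors and D-type cyclins 3 were called lower and 0 higher (5 and 0 with the block, 1 to 5 lower with a library left out, moved over 1.5 times by iDOT1L library 3 and iEZH2 libraries 3 and 4). CCND1, cyclin D1, stood at 77.6, 79.6, 61.4 and 50.1 with iDOT1L, 311, 334, 205 and 215 with iEZH2 and 219, 146, 159.6 and 111 with DMSO (log2 difference -1.96 ± 0.25 SE, adjusted p = 7.97e-05). CDKN1A, the p21 inhibitor, differed by -0.33 (adjusted p = 0.0242), and the call was lost without iDOT1L library 2 or 3 or iEZH2 library 1 or 3. CCND2, cyclin D2, was the other (-0.31, adjusted p = 0.0364). Of 22 p53 targets 3 were called lower and 0 higher without the block, and 5 and 2 with it. The 3 were CDKN1A, SESN1 (-0.48, adjusted p = 0.00749) and FDXR (-0.40, adjusted p = 0.0234), a lower count that was 1 to 3 with a library left out and lowest without iDOT1L library 2 or iEZH2 library 3. Of 16 BCL2 family genes 2 were called lower, both killers and named after their values were seen, BCL2L11, which encodes BIM (-0.68, adjusted p = 6.74e-04), and PMAIP1, which encodes NOXA (-0.61, adjusted p = 0.0043). BCL2 itself, a survival protein, was higher in each of the 4 replicate numbers, as were 17.2% of all genes tested. It was called only with the block (0.37, adjusted p = 0.0919 and 0.00588), and MCL1 differed by -0.05 (interval -0.21 to 0.11).

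Interferon-stimulated genes were mixed, with 6 of 47 called lower and 4 higher (8 and 6 with the block) and a median of -0.20. OAS3 is given above and USP18, which dampens the interferon receptor, differed by -0.67 (adjusted p = 0.00754), while TRIM22 and XAF1 were higher (0.56 and 0.45, adjusted p = 0.00531 and 0.0027). Of 22 immediate early and AP-1 genes 2 were called higher, JUN (1.68, adjusted p = 0.00103) and FOSL2 (0.64, adjusted p = 0.0134), both named after their values were seen. EGR1, a target of ERK signalling, stood at 11.5, 16.1, 40.8 and 14.6 with iDOT1L, 56.2, 57.9, 80.3 and 21.6 with iEZH2 and 183, 105, 296 and 153 with DMSO, and was called only with the block (log2 difference -1.37, adjusted p = 0.0515 and 0.00495, -1.75 without iEZH2 library 4). With the block 4 genes of this list were called higher and 3 lower. Of 30 genes of the ATF4 and unfolded protein responses 2 were called higher, EDEM1 (0.58, adjusted p = 0.00932) and HERPUD1 (0.44, adjusted p = 0.00297), and 1 lower, ATF5 (-0.76, adjusted p = 0.00112), with 2 and 11 with the block. With a library left out the higher interferon count was 2 to 4 (moved by iDOT1L libraries 1, 3 and 4 and iEZH2 libraries 2 and 3), the AP-1 count 1 or 2 (iDOT1L library 1, iEZH2 libraries 2 and 3) and the lower ATF4 count 1 to 6 (iDOT1L library 2, iEZH2 libraries 1 and 4). Of 27 lysosomal genes 2 were called higher without the block and 8 with it, with 0 to 3 when a library was left out (moved by each library except iDOT1L library 2). Without the block 7.41% of this list was called, beside 9.09% of the AP-1 list, 10% of the ATF4 list and 6.94% of all genes tested. With the block 14.3% of all genes were called. Of 17 genes of RAS-MAPK feedback 3 were called higher, DUSP5 (0.62), SPRY4 (0.63) and ETV4 (0.37), and 2 lower, CCND1 and EPHA2 (-2.46), with 5 and 2 with the block. EPHA2 averaged under 10 normalised counts over the 16 libraries. The higher count was 1 to 4 with a library left out (moved by iDOT1L libraries 1 and 3 and iEZH2 library 2), and SPRY4 and ETV4 each lost the call in 5 of 8 such fits. SPRY4 was named after its value was seen.

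Markers of other cell types were also read. Over all genes tested 3.88% were called higher and 3.06% lower, and 7.35% and 6.91% with the block. Of 17 erythroid and megakaryocyte markers 3 were called higher, CA2, carbonic anhydrase 2 (0.82, adjusted p = 7.84e-04, 0.99 without iEZH2 library 4), NFE2 (0.53, adjusted p = 0.00344) and EPOR (0.37, adjusted p = 0.0256). Of 23 stem and progenitor markers 3 were called higher, LMO2, LYL1 (0.32) and RUNX1 (0.38), a count of 1 without iEZH2 library 3, and 1 lower, the cytokine feedback gene SOCS2 (-1.05, adjusted p = 2.97e-05, -1.21 without iEZH2 library 4). KIT and CD34 were low and not called (57.1 to 96.3 and 6.36 to 27.1 with iDOT1L, 27.9 to 99.5 and 5.99 to 19.2 with iEZH2). Of 20 lymphoid markers 2 were called higher, CD79A (1.36) and IL7R (1.97), both named after their values were seen, and 4 higher and 2 lower with the block. Of 15 stromal, endothelial and epithelial markers PECAM1 (0.74) was called higher and KRT18 (-0.91) and ACTA2 (-0.81) lower (1 and 3 with the block). Of 10 mast cell, basophil and eosinophil markers 0 were called with or without the block in the fit of 16 libraries. There was 1 called higher with the 8 libraries alone and the block, and 1 without trend and robust estimation. The part of these markers in the differences above was not tested. Over 20% of the 31-base words in transcripts of ACAT2, ACTA2, ATF5, BMI1, CEBPA, CIITA, DENND10, HOXA10, HOXA7, HOXA9, KRT18, LYZ, NME1, PAX6, PHC1, USP18 and XAF1 occur in other genes as well, so their levels are uncertain. In the fit of 16 libraries none of 51 cytosolic ribosomal protein genes and none of 13 mitochondrially encoded mRNAs was called with or without the block. With the 8 libraries alone and the block 3 of the 51 were called higher and 5 of the 13 lower. No difference of the 13 was positive (median -0.13). Of the 13, 7 were lower in each of the 4 replicate numbers, beside 16.7% of all genes tested. Their summed levels overlapped, at 419288 to 656790 normalised counts with iDOT1L and 427856 to 740766 with iEZH2. Whether the 13 moved independently of each other was not tested.

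**Figure D5:**
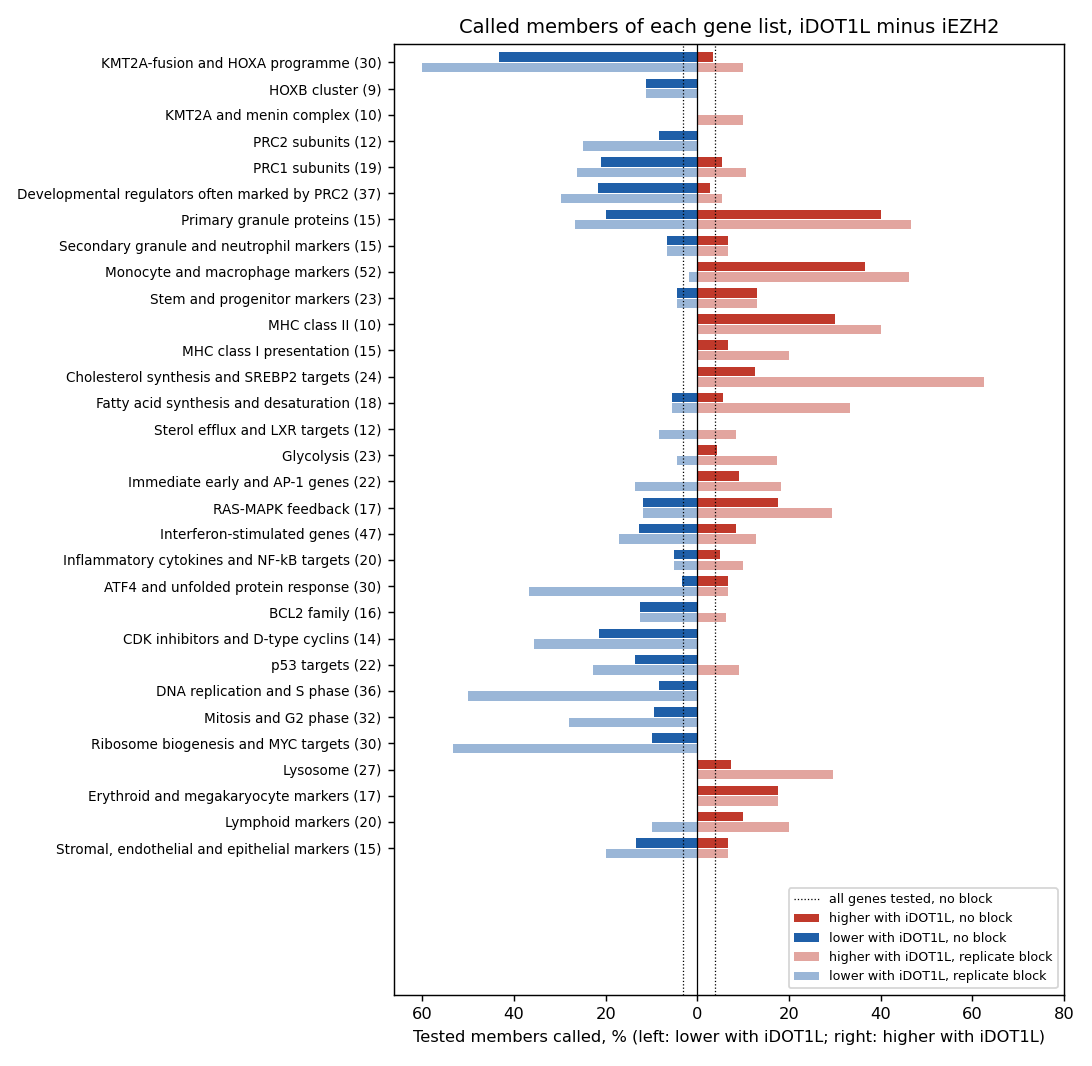
Share of the tested members of each list (number in brackets) called lower (left, blue) and higher (right, red) with iDOT1L than with iEZH2, without the block (dark) and with it (pale), for lists with at least 1 call. Dotted lines mark the shares over all genes without the block (3.06% lower, 3.88% higher), and the cholesterol, replication and ribosome biogenesis bars grow most with the block.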

How the data were processed

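RNA of Molm14 cells was sequenced in 16 libraries as read pairs of 150 bases. The deposited table holds log2 values from a variance-stabilising transformation, which were turned back into normalised counts. The submitters' processing notes name kallisto, DESeq2 and hg38, without versions. Between 62.8% and 65.7% of the low values (under 12) lay within 0.1 of a whole read, so counts were not recovered and read totals are estimates. Genes above 1 normalised count in at least 4 libraries were fitted on log2(value + 1) with limma 3.58.1 (trend and robust, R 4.3.3) over the means of all 4 groups, Combo included, with 12 residual and 6.8 prior degrees of freedom. The fit was tested on simulated data.

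The labels number replicates 1 to 4 in each group without saying what a number stands for. The source names also carry a suffix that follows these numbers and is shared by the groups, and its meaning is likewise unsaid. Deviations from the group mean of iDOT1L and iEZH2 libraries of the same number correlated at 0.186, 0.159, 0.0257 and 0.0674 over all 22331 genes tested, with numbers 3 and 4 under the limit of 0.1 used here, and at 0.639, 0.527, 0.113 and 0.284 over 12270 genes with a mean of at least 50. Number 3 also lay under it at a minimum of 10 or 20 (0.0388 and 0.0567) and above it at 30, 100 and 200 (0.104, 0.211 and 0.323). The minimum of 50 was chosen after several had been tried and calls had been seen, so the pairing is not established, and the block is an alternative. Libraries 3 and 4 did not stand apart from each other (0.159 and 0.304 across these numbers).

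The comparison and the gene lists were chosen with earlier results of these data known. Genes are named by a rule: a set of fixed genes, the 10 largest called differences each way among protein-coding genes with no overlap and a mean of at least 20, up to 10 opposite genes each way, up to 4 members by lowest adjusted p of each list with at least 3 calls, and the 5 largest differences each way with DMSO between. The 3 strict genes with the smallest changes, PXK, DENND10 and CITED2, fall outside it, and some genes it names are not reported here. Shared sequence was counted in GENCODE release 29 transcripts. Alternatives were the block, other scalings, pseudocounts, filters and groups in the fit, a 2-fold limit and each library left out.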

Additional observations from a re-analysis of the deposited data

Results flagged for a closer look

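Each of the 135 genes named was checked in both groups for a library that stood far from the other 3, and 18 of 270 groups of 4 libraries passed Dixon's critical value for the gap over the range. Chance passes about 1 in 20 groups. Library 4 of iEZH2 was the far one in 7 of them, and its normalised counts lay on the iDOT1L side in each: ATP8A2 at 84.94 (others 21.7 to 29.3), CA2 at 424.6 (others 262.1 to 271.5), LYZ at 6540.9 (others 3417.7 to 3698.0), MEGF6 at 217.5 (others 32.06 to 63.64), MPO at 2288.1 (others 871.7 to 941.1), SOCS2 at 3397.4 (others 5143.7 to 5417.4) and TMEM121B at 544.9 (others 331.6 to 364.6). In iDOT1L library 1 the normalised count stood apart for BIRC5 at 1563.5 (others 1758.2 to 1795.0), CCNB1 at 2002.3 (others 2413.7 to 2488.3) and MEF2C at 3932.6 (others 2413.6 to 2507.2). In iDOT1L library 2 the normalised count stood apart for CD14 at 6.916 (others 3.038 to 3.59), GPR141 at 34.84 (others 57.59 to 60.97) and PPIC at 23.63 (others 11.42 to 13.44). In iDOT1L library 3 the normalised count stood apart for BMI1 at 8196.3 (others 8658.3 to 8705.6), CD34 at 27.07 (others 6.358 to 7.243) and EGR1 at 40.81 (others 11.51 to 16.08). In iEZH2 library 1 the normalised count stood apart for EZH2 at 1841.9 (others 2385.8 to 2444.9). In iEZH2 library 2 the normalised count stood apart for ACAT2 at 1594.0 (others 2051.9 to 2109.8).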

How the results depend on the processing

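The count of genes differing between the treatments (1550) was 3185 with the replicate block, 1004 with only the libraries of the groups compared in the fit, 3612 with both, 421 at 2-fold or more, and 964 to 1802 with a library left out. The strict opposite count (23) was 99 with the block, 162 with the block and only the groups compared, 12 without trend and robust estimation, and 5 to 38 with a library left out. The count with DMSO between the treatments (68) was 22 at 2-fold or more and 69 to 168 with a library left out. The other alternatives stayed within 1.5 times of each count. The 22 strict genes named were called between the treatments, with the same sign, in every alternative run for single genes. Of 115 named genes called, 86 were called in all such alternatives, 29 were lost in 1 or more and 0 changed direction. Those that changed direction were not called: CEBPA (-0.0645 to 0.00687 with a library left out), CD14 (-0.49 to 0.23), DOT1L (-0.00625 to 0.13) and ITGAM (-0.44 to 0.18). The cause was not tested. Of the 29, these were lost in 5 or more of 8 fits with a library left out (highest adjusted p 0.0703 to 0.184): MEF2C, AGXT, CBX2, EBP, ACAT2, ETV4, CCND2, FDXR, RFC5, TK1, BIRC5, NME1, PES1, EPOR, EED, BMI1, OLIG2, SRGN and SPRY4. In the fit of 16 libraries the block added a call for 9 named genes, given above, and changed no other call, and in the fit of the 8 libraries alone it also ended that of LYZ (adjusted p = 0.0923). Genes at low normalised counts, such as CD14 and EPHA2, are limited by depth.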
